A study of Mus musculus with 6 samples.

Results

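The genes described here encode the intraflagellar transport (IFT) complexes, the BBSome and cytoplasmic dynein-2, the machinery that moves cargo along cilia and flagella. They were picked by gene symbol from the read-count table: 36 genes out of 55487 in the table, all 36 of them among the 19826 genes that passed the filter on low counts and were tested. They comprise 12 subunits of the IFT-B core, 6 peripheral IFT-B subunits, 6 IFT-A subunits, 7 BBSome subunits, 3 genes of BBSome recruitment and assembly, and 2 dynein-2 subunits.

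Whole testes of mice at postnatal day 19 were profiled by sequencing of polyadenylated RNA, in 3 control libraries and 3 libraries labelled dsfb. According to the title of the series the dsfb mice were homozygous for SFB alleles of both Hormad1 and Hormad2, 2 genes for proteins of the meiotic chromosome axis. The sources used here do not say what the SFB alleles change in these genes or, beyond the word control, what genotype the control mice had. Each library stands for a different mouse, so n = 3 in each group counts animals. The comparison asks how transcripts of the transport machinery differed between testes of the 2 genotypes.

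In building a cilium or a sperm tail, IFT trains carry tubulin and axonemal components from the cell body to the tip. The IFT-B complex is moved outward by kinesin-2, and the IFT-A complex works with dynein-2 on the way back. The BBSome, a coat-like complex recruited to membranes by the GTPase ARL6, rides on these trains and sorts membrane proteins. In the testis, meiotic and postmeiotic germ cells express these genes as the sperm tail is prepared and built, and other cell types that carry a primary cilium express them too. Many ciliary genes carry in their promoters an X-box, the paired site bound by transcription factors of the RFX family.

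An X-box-like pair was found in the promoter of 4 of the genes, and these stretches are shown because the genes come from the IFT-B core, the IFT-B periphery and the BBSome and differ in the size of their change. Each is 30 bases from RefSeq (GRCm38.p6), written 5′ to 3′ in the direction of transcription, with the pair in capitals. The search was for GTTNCC and GGNAAC with 0 to 3 bases between them, which reads alike on both strands.
Bbs7, chr3:36613489-36613518, minus strand: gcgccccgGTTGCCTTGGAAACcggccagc
Ift57, chr16:49699226-49699255, plus strand: gccctgcgGTTGCCTGGTAACggtggggac
Ttc26, chr6:38381483-38381512, plus strand: ccggcggcGTTGCCGTGGAAACggagctcg
Ttc30a2, chr2:75978182-75978211, minus strand: gttggcttGTTGCCATGGGAACaagcacac
The pair began 121 bases before the annotated transcription start in Bbs7, 60 before it in Ift57, 33 in Ttc26 and 24 in Ttc30a2. All 4 pairs held the letters GTTGCC, so each also counts as a half-site match. The stretches of Ift57 and Ttc26 lie partly or wholly in an exon that GENCODE annotates for the same gene, and those of Bbs7 and Ttc30a2 lie in no annotated exon.

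A promoter window of 300 bases, from 250 before to 50 after the start, was held for 31 of the 36 genes. An X-box-like pair was present in 4 of these 31 genes (12.9%), against 0.936% of all 27025 genes with a window. The half-site GTTGCC, on either strand, was present in 13 of the 31 (41.9%), against 14.1% of all genes with a window. Those 13 were Bbs1, Bbs5, Bbs7, Dync2h1, Ift140, Ift172, Ift27, Ift57, Ift88, Traf3ip1, Ttc26, Ttc30a2 and Wdr35. A match describes letters in a window and is not evidence that a factor binds there. No window was held for Ift81, Ttc30b, Ift80, Ift122 and Dync2li1.

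The libraries held 24 to 27.7 M counted reads in control and 15.3 to 17.3 M in dsfb, and the lowest count of any of the 36 genes in a library was 57 (Ttc30a2 in dsfb replicate 1). Control replicate 3 stood apart from the other 2 controls: the chi-square over degrees of freedom across genes was 69.8 and 74.1 for the pairs with it and 6.84 for the pair without it. Its spermatid transcripts summed to 1105 CPM (counts scaled to a common library total), against 379 and 424 in control replicates 1 and 2. For the transport genes it lay above both other controls in 17 genes, below both in 15 and between them in 4, with a median log2 difference of 0.03. Hormad1 had 445, 485 and 208 CPM in control and 217, 245 and 243 in dsfb, and the difference did not pass the test (log2 fold change -0.69 ± 0.28 SE, edgeR adjusted p = 0.0597). It did without control replicate 3 (-1.02, edgeR adjusted p = 1.57e-10), and also with RLE scaling (0.0382), with DESeq2 (adjusted p = 0.00496), with no filter (0.0247) and with libraries centred on the autosomal Sertoli markers (0.000634). Hormad2 had 59.9, 54.9 and 42.7 CPM in control and 25.1, 28.6 and 27.3 in dsfb (log2 fold change -0.96 ± 0.14 SE, edgeR adjusted p = 0.000757). The labels do not say that the SFB alleles lower the transcripts, so these values do not check the genotype.

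Transcripts of the transport machinery were lower in the dsfb testes across all complexes. Of the 36 genes, 34 fell (edgeR adjusted p under 0.05), where 36.2% of all genes tested fell. None of the 36 rose, where 30.7% of all genes tested rose; 34 of the 36 had an unadjusted p under 0.05, all of them lower, and no gene of the set rose in the DESeq2 or limma-voom fits either. The fall was at least 2-fold in 28 genes, against 26.8% of all genes tested. In 35 genes all 3 dsfb libraries lay below all 3 control libraries, an arrangement found in 38.5% of all genes tested, and only in Hspb11 did the groups overlap. The median log2 fold change, dsfb over control, was -1.65 (3.13-fold lower) with a range from -5.87 to -0.31, while the median over all genes tested was 0.02. Without control replicate 3, 35 genes fell and the median was -1.66. In whole testes, fewer cells of a type and less RNA per cell cannot be told apart.

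The 36 genes together took 5479, 5967 and 6134 CPM in the 3 controls and 1480, 1582 and 1477 CPM in the 3 dsfb libraries. All dsfb sums lay far below all control sums, at 25.8% of the control mean. The genes lie on 16 chromosomes and none is on the X or Y chromosome. CPM here are on library sizes scaled by the trimmed mean of M values (TMM), and all errors on CPM are SD with n = 3.

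**Figure D1:**
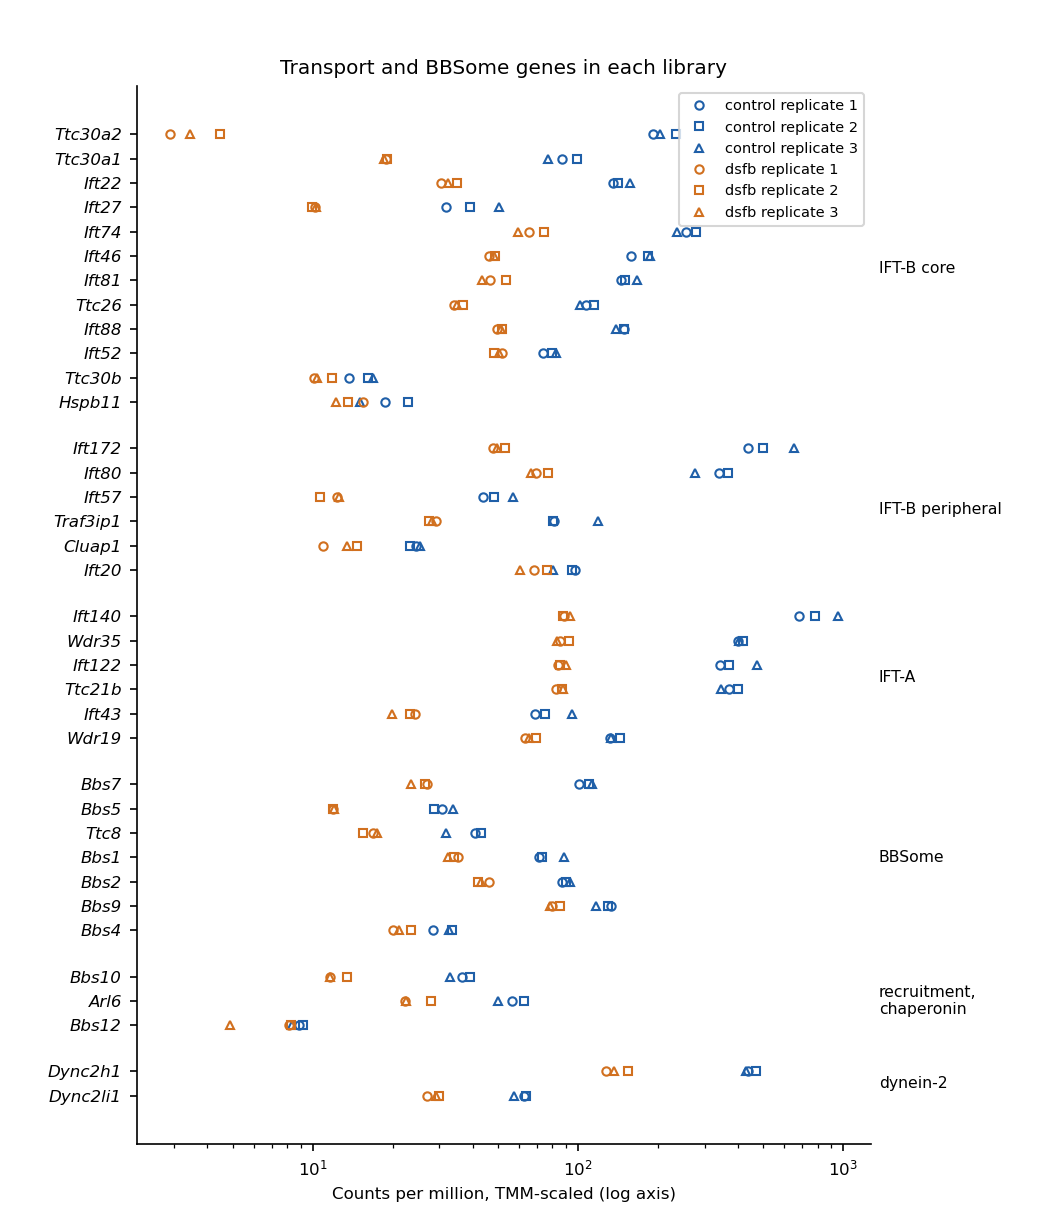
CPM (horizontal log axis) of each of the 36 genes in each library, grouped by complex and ordered within a complex by the size of the change; blue symbols are the 3 control and orange symbols the 3 dsfb libraries, with 1 symbol shape per replicate number. Control and dsfb libraries are separate in 35 genes, and in Hspb11 they overlap.

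Markers of mid to late pachytene spermatocytes, the germ cells that the first wave of spermatogenesis has reached by this age, moved in the same direction as the transport genes. All 10 fell, with a median log2 fold change of -7.95, and their sum went from 8057 to 11092 CPM in control to 295 to 327 CPM in dsfb (3.26% of control). Of them Crisp2, Adam3, Nme8 and Spag6l had the smallest p; Adam3, a sperm membrane protein, had 517, 596 and 789 CPM in control and 0.101, 0.172 and 0.0539 CPM in dsfb. Spermatid markers fell in 9 of 9 tested genes (379 to 1105 CPM in control, 31.9 to 41.6 in dsfb), with limma-voom in 3 of 9. In control replicates 1 and 2 most of the sum was Catsper2 (231 and 256 CPM) and Acr (95.7 and 114). In dsfb most of it was Catsper2 (18.7, 20.5 and 27.6 CPM). The median log2 fold change of the spermatid markers, -6.99, rests on control replicate 3: without it 7 genes were tested, all 7 fell and the median was -3.62. The autosomal Sertoli cell markers rose in 11 of 11 genes with TMM scaling (2713 to 3717 CPM in control, 6516 to 6863 in dsfb, 203% of control), with the smallest p in Inha, Cldn11, Gata4 and Inhbb, a direction that centring on these markers removes by construction. Whether these marker changes reflect cell content, and their part in the falls of the transport genes, was not tested. The transport genes kept 25.8% of their control sum where the pachytene markers kept 3.26%.

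Other cell types were measured in the same way. Spermatogonial markers rose in 7 of 10 genes and 1, Dmrtb1, fell (summed level 678 to 872 CPM in control and 405 to 443 in dsfb, set largely by Dmrtb1). Leptotene and zygotene markers rose in 5 of 10 genes, among them Dmc1, Mei1 and Prdm9, and 1, Spo11, fell. Their sum was 2254, 2359 and 1189 CPM in control, with replicate 3 lowest, and 1554 to 1754 in dsfb. Sycp1, Sycp3, Meiob and Hormad1, named after their values were seen, did not pass the test (log2 fold changes -0.63, -0.45, -0.66 and -0.69). All 4 did without control replicate 3, where 5 of the 10 genes fell and 5 rose. With every library kept, all 4 passed with DESeq2 (adjusted p = 0.0102, 0.0419, 0.00883 and 0.00496) and with Sertoli centring, and none with limma-voom. Sycp1, Meiob and Hormad1 also passed with no filter and with the replicate number as a block. Leydig cell markers rose in 3 of 6 genes, and in 5 without control replicate 3 (205 to 365 CPM in control, 245 to 523 in dsfb), peritubular myoid markers in 3 of 5 (190 to 303 and 348 to 475 CPM) and macrophage markers in 3 of 5 (81.6 to 106 and 144 to 179 CPM). These rises too are on TMM-scaled counts. For all marker lists the shares over all genes tested are 36.2% lower and 30.7% higher. The groups overlapped in 4 of the 6 Leydig genes. Insl3, among the Leydig rises, had a mean of 0.698 CPM in control, and 64.8% of its exonic bases are shared with Jak3 on the same strand.

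The multiciliated epithelium of the efferent ducts, which also expresses transport genes, was checked with the markers of rete testis and efferent ducts. These summed to 50.1 to 59.6 CPM in control and 38.3 to 43.4 in dsfb. Of 6 tested genes 2, Krt8 and Krt19, fell, a share near the 36.2% of all genes tested. The other 4 were not called: Cdh1 and Pax8 were higher (log2 fold changes 0.80 and 0.73), Epcam and Aqp1 lower (-0.21 and -0.77). Krt19 was low, with a mean of 0.83 CPM in control. Most of the sum was Epcam, and Pax8, which defines this epithelium, lay between 0.369 and 1.06 CPM in all libraries. Immediate early genes, used as a sign of how the tissue was handled, rose in 6 of 7 genes (46.2 to 52.1 CPM in control, 92.4 to 140 in dsfb); their part in the result was not tested. No marker had 0 counts throughout a group.

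**Figure D2:**
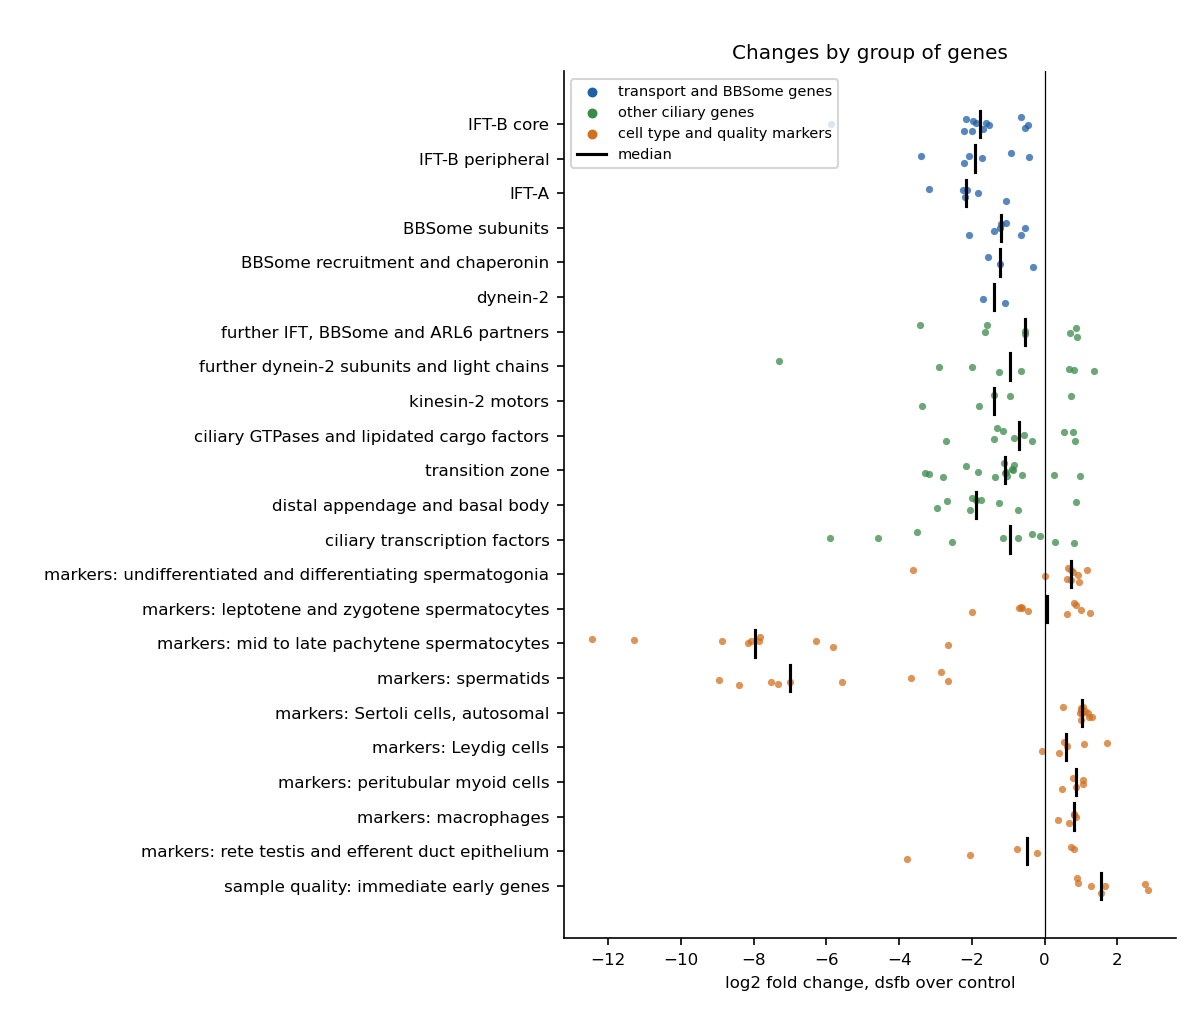
Log2 fold change, dsfb over control, of every tested gene (points) in each group of genes, with the median of the group as a black bar; blue marks the transport and BBSome genes by complex, green the other ciliary genes and orange the markers of cell types and sample quality. The medians of the 6 transport groups lie between -2.16 and -1.19, those of the pachytene and spermatid markers at -7.95 and -6.99 (-3.62 for the spermatid markers without control replicate 3), and that of the Sertoli markers at 1.02.

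The IFT-B core, the platform of the outward train, fell in 11 of 12 genes, 9 of them at least 2-fold, with a median log2 fold change of -1.78. Its summed level in dsfb was 27% of that in control. The core held both the largest change of the 36 genes, in Ttc30a2, and some of the smallest, in Hspb11, Ttc30b and Ift52.

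The 3 Ttc30 genes encode near-identical copies of the subunit IFT70 and changed to unequal extents. They are single-exon genes that lie in a row on the minus strand of chromosome 2 (mm10): Ttc30b at chr2:75935849-75938585, Ttc30a2 at chr2:75975740-75978170 and Ttc30a1 at chr2:75978247-75981967. Each has a coding sequence of 1992 bases. The coding sequences of Ttc30a1 and Ttc30a2 were 95.1% identical, and those of Ttc30b were 94.9% identical with either. The first 90 coding bases, from the start codon, show how the copies can be told apart, with the 11 positions that differ between them in capitals.
Ttc30a1: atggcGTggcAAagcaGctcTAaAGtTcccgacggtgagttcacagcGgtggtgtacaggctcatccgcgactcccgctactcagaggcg
Ttc30a2: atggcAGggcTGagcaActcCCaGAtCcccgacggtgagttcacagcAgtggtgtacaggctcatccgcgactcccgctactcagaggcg
Ttc30b: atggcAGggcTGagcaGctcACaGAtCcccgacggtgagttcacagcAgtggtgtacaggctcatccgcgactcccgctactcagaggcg
Over the whole transcripts, 30% of the 100-base stretches of Ttc30a2 also occur in Ttc30a1 and 18.8% in Ttc30b, and 19.3% of those of Ttc30a1 occur in Ttc30a2. The sources used here do not say how reads from shared stretches were counted, and the split of counts between the copies is uncertain.

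Ttc30a2 had 192, 234 and 203 CPM in the controls and 2.89, 4.47 and 3.45 CPM in dsfb. Every dsfb library lay far below every control, and the gene fell 58.4-fold (log2 fold change -5.87 ± 0.18 SE, edgeR adjusted p = 2.65e-07). Ttc30a1 had 86.7, 98.7 and 77.1 CPM in control and 18.8, 19.1 and 18.5 in dsfb, groups that did not overlap either. It fell 4.66-fold (log2 fold change -2.22 ± 0.12 SE, edgeR adjusted p = 3.14e-06). Ttc30b had 13.7, 16.2 and 16.9 CPM in control and 10.1, 11.8 and 10.4 in dsfb, a small gap between the groups. It fell 1.45-fold (log2 fold change -0.54 ± 0.17 SE, edgeR adjusted p = 0.0218), and this call was lost with upper-quartile scaling or library size only, and without control replicate 2 (edgeR adjusted p = 0.064), dsfb replicate 1 (0.0853) or dsfb replicate 3 (0.0722).

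Ttc30a2 stood above the other copies in control and below them in dsfb. Per kilobase of exon, Ttc30a2 stood at 3.4, 3.63 and 4.03 times the level of Ttc30a1 in the controls, and at 0.236, 0.357 and 0.286 times in dsfb. Against Ttc30b it stood at 15.9, 16.3 and 13.5 times in control and 0.322, 0.426 and 0.373 times in dsfb. The ratio of Ttc30a1 to Ttc30b went from 4.67, 4.48 and 3.36 to 1.37, 1.19 and 1.31. In control the order was therefore Ttc30a2, Ttc30a1, Ttc30b, and in dsfb Ttc30a1, Ttc30b, Ttc30a2. None of the 3 ratios overlapped between the groups, and the exact two-sided permutation test of each gave p = 0.1, the smallest that 3 libraries against 3 can give.

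**Figure D3:**
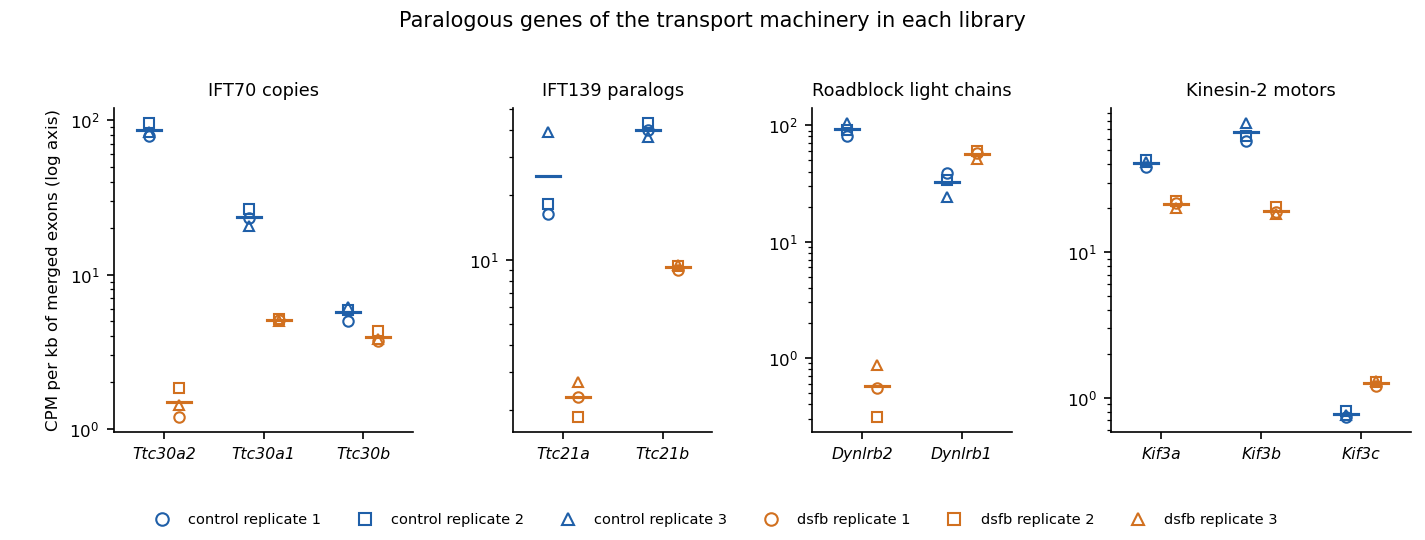
Level per kilobase of merged exons (vertical log axis, a separate range in each panel) of related genes of the transport machinery in each library; blue symbols are control and orange symbols dsfb libraries, with 1 shape per replicate number, and bars are group means. Ttc30a2 goes from the highest of the 3 IFT70 copies (86.3 CPM per kb) to the lowest (1.48), and Dynlrb2 falls below Dynlrb1.

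The small GTPase subunits of the core, Ift22 and Ift27, both fell. Ift22 had 136, 142 and 157 CPM in control and 30.3, 35.1 and 32.2 in dsfb, with no overlap (4.46-fold lower, log2 fold change -2.16 ± 0.10 SE, edgeR adjusted p = 1.81e-06). Ift27 had 31.9, 39.1 and 50.3 CPM in control and 10.2, 9.91 and 10.3 in dsfb, again without overlap (3.99-fold lower, log2 fold change -2.0 ± 0.19 SE, edgeR adjusted p = 6.48e-05). Hspb11 encodes IFT25, the partner that binds IFT27. It had 18.7, 22.8 and 15 CPM in control and 15.5, 13.6 and 12.2 in dsfb: the groups overlapped, since control replicate 3 lay below dsfb replicate 1. The difference did not pass the test (log2 fold change -0.45 ± 0.20 SE, edgeR adjusted p = 0.0721), and without control replicate 3 it did (-0.62, edgeR adjusted p = 0.000477). With every library kept, it also passed with RLE scaling, with DESeq2 and with the replicate number as a block. It passed too with libraries centred on the autosomal Sertoli markers (log2 fold change -1.52).

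Ift74 and Ift81, which form the tubulin-binding pair of the core, fell alongside each other. Ift74 had 256, 278 and 237 CPM in control and 65.1, 74.2 and 59.4 in dsfb (3.88-fold lower, edgeR adjusted p = 5.44e-06). Ift81 had 145, 150 and 167 CPM in control and 46.5, 53.7 and 43.4 in dsfb (3.22-fold lower, edgeR adjusted p = 1.02e-05). The groups were well apart in both. Ift88, whose loss removes cilia in mice, had 149, 149 and 139 CPM in control and 49.6, 51.5 and 51 in dsfb (log2 fold change -1.52 ± 0.08 SE). Its partner in the complex, Ift52, kept more of its level: it had 74, 79.5 and 82.5 CPM in control and 51.8, 48.1 and 50.3 in dsfb (log2 fold change -0.65 ± 0.09 SE, edgeR adjusted p = 0.000402). Groups overlapped in neither, and the fold of Ift52 (1.57) was smaller than that of Ift88 (2.87). Ift46 fell 3.68-fold from 176 ± 14.5 to 47.8 ± 1.29 CPM, and Ttc26, which encodes IFT56, fell 3.07-fold from 108 ± 6.23 to 35.2 ± 1.36 CPM.

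The peripheral IFT-B subunits, which connect the core to kinesin-2 and to tubulin, fell in 6 of 6 genes, 4 of them at least 2-fold. Their median log2 fold change was -1.90 and their summed level in dsfb 21.7% of that in control. Ift172 (chr5:31253277-31291116), the largest subunit of IFT-B, had 438, 499 and 651 CPM in control, with replicate 3 highest, and 47.9, 52.8 and 49.5 in dsfb. It fell 10.6-fold with groups far apart (log2 fold change -3.40 ± 0.16 SE, edgeR adjusted p = 2.02e-06). Ift80 had 339, 368 and 277 CPM in control, with replicate 3 lowest, and 69.6, 77 and 66.2 in dsfb (4.63-fold lower, edgeR adjusted p = 5.5e-06). Ift57, with 43.8, 48 and 56.9 CPM in control and 12.3, 10.6 and 12.5 in dsfb, fell 4.2-fold (edgeR adjusted p = 1.52e-05); 7.86% of its exonic bases are shared with an antisense gene.

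Traf3ip1, which encodes IFT54, had 81.1, 80.1 and 119 CPM in control and 29.1, 27.5 and 28.1 in dsfb. Its dsfb libraries were tightly grouped and all below the controls, of which replicate 3 was highest (3.31-fold lower, edgeR adjusted p = 7.87e-05). Cluap1 (IFT38) fell less, from 24.3 ± 1.11 to 13 ± 1.92 CPM (log2 fold change -0.91 ± 0.16 SE, edgeR adjusted p = 0.00149), and 22.4% of its exonic bases are shared with a gene on the same strand. Ift20, the subunit that also works at the Golgi, changed least of the 6. It had 97.5, 95.2 and 80.7 CPM in control and 68, 76.1 and 60.3 in dsfb, with control replicate 3 not far above dsfb replicate 2. The fall of 1.34-fold (log2 fold change -0.42 ± 0.12 SE, edgeR adjusted p = 0.0147) was not called with upper-quartile scaling or library size only, nor without dsfb replicate 1 (edgeR adjusted p = 0.0576) or dsfb replicate 3 (0.0673).

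The IFT-A complex, needed for the return of trains and the entry of membrane proteins, fell in 6 of 6 genes, each by at least 2-fold. Its median log2 fold change was -2.16 and its summed level in dsfb was 19.9% of that in control (1993 to 2405 CPM against 429 to 445). Ift140 (chr17:25016085-25099495) had 680, 785 and 956 CPM in control and 88.8, 87.5 and 93.3 in dsfb. It fell 8.99-fold with groups far apart (log2 fold change -3.17 ± 0.14 SE, edgeR adjusted p = 1.58e-06). Ift122 and Ttc21b (IFT139) fell 4.56-fold and 4.35-fold. Wdr35 (IFT121) had 401, 417 and 403 CPM in control and 85.4, 92.5 and 83.4 in dsfb, a narrow spread in both groups (4.68-fold lower, log2 fold change -2.23 ± 0.08 SE, edgeR adjusted p = 6.36e-07). Ift43 went from 79.7 ± 13.8 to 22.5 ± 2.29 CPM (3.55-fold lower). Wdr19 (IFT144) changed least of the 6, from 132, 144 and 133 CPM to 63.3, 69.2 and 65.3 (2.07-fold lower, log2 fold change -1.05 ± 0.08 SE, edgeR adjusted p = 2.8e-05).

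The BBSome subunits fell in 7 of 7 genes, 5 of them at least 2-fold, with a median log2 fold change of -1.19. Their summed level in dsfb, 228 to 238 CPM, was 46.5% of the 492 to 510 CPM in control. Bbs7 had 101, 110 and 113 CPM in control and 26.9, 26.5 and 23.5 in dsfb and fell the most of the 7 (4.22-fold, log2 fold change -2.08 ± 0.10 SE, edgeR adjusted p = 1.86e-06). Bbs2, which forms a pair with BBS7 in the assembly intermediate of the complex, had 87.2, 90.1 and 93.2 CPM in control and 46, 42 and 43.1 in dsfb. It fell 2.06-fold (log2 fold change -1.05 ± 0.08 SE, edgeR adjusted p = 3.03e-05), and groups overlapped in neither gene. Bbs5, with a domain that binds membrane lipids, had 30.7, 28.6 and 33.9 CPM in control and 11.9, 11.9 and 12 in dsfb (2.6-fold lower).

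The other BBSome subunits changed by less than Bbs7. Bbs1, which contacts ARL6, went from 77.4 ± 9.4 to 33.9 ± 1.4 CPM (2.29-fold lower), and Ttc8 (BBS8) from 38.6 ± 5.99 to 16.5 ± 1 CPM (2.34-fold lower). Bbs9, a scaffold of the complex, had 133, 130 and 117 CPM in control and 79.7, 85.2 and 78.6 in dsfb (1.56-fold lower, log2 fold change -0.64 ± 0.09 SE, edgeR adjusted p = 0.000401). Bbs4 had 28.3, 33.6 and 32.7 CPM in control and 20.1, 23.4 and 21.1 in dsfb, close but not overlapping groups (1.47-fold lower, log2 fold change -0.55 ± 0.13 SE, edgeR adjusted p = 0.00619). The call of Bbs4 was lost with upper-quartile scaling and with library size only, and 3.21% of its exonic bases are shared with Adpgk on the opposite strand.

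Of the genes that recruit or assemble the BBSome, Arl6 and Bbs10 fell and Bbs12 did not pass the test. Arl6, the GTPase that brings the BBSome to membranes, had 56.4, 62.7 and 49.9 CPM in control and 22.3, 27.8 and 22.5 in dsfb (2.33-fold lower, edgeR adjusted p = 0.000168). Bbs10 and Bbs12 encode chaperonin-like proteins that help assemble the complex. Bbs10 had 36.4, 39.2 and 32.9 CPM in control and 11.6, 13.5 and 11.6 in dsfb (2.96-fold lower, edgeR adjusted p = 4.61e-05). Bbs12 had 8.83, 9.19 and 8.31 CPM in control and 8.11, 8.3 and 4.85 in dsfb (log2 fold change -0.31 ± 0.24 SE, edgeR adjusted p = 0.289). Its dsfb replicates 1 and 2 lay just under the lowest control, and with library size only its fold change turned to 0.08. With libraries centred on the autosomal Sertoli markers, which shifts the median of all genes by -1.08, Bbs12 was called lower (-1.39).

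Dynein-2 is the motor of the return journey. Dync2h1, its heavy chain, had 437, 469 and 428 CPM in control and 127, 154 and 137 in dsfb (3.19-fold lower, log2 fold change -1.68 ± 0.10 SE, edgeR adjusted p = 6.94e-06). Dync2li1, its light intermediate chain, had 62.6, 63.6 and 57.4 CPM in control and 27, 29.8 and 29.1 in dsfb (2.14-fold lower, edgeR adjusted p = 5.03e-05). Both genes had groups that were well apart.

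**Figure D4:**
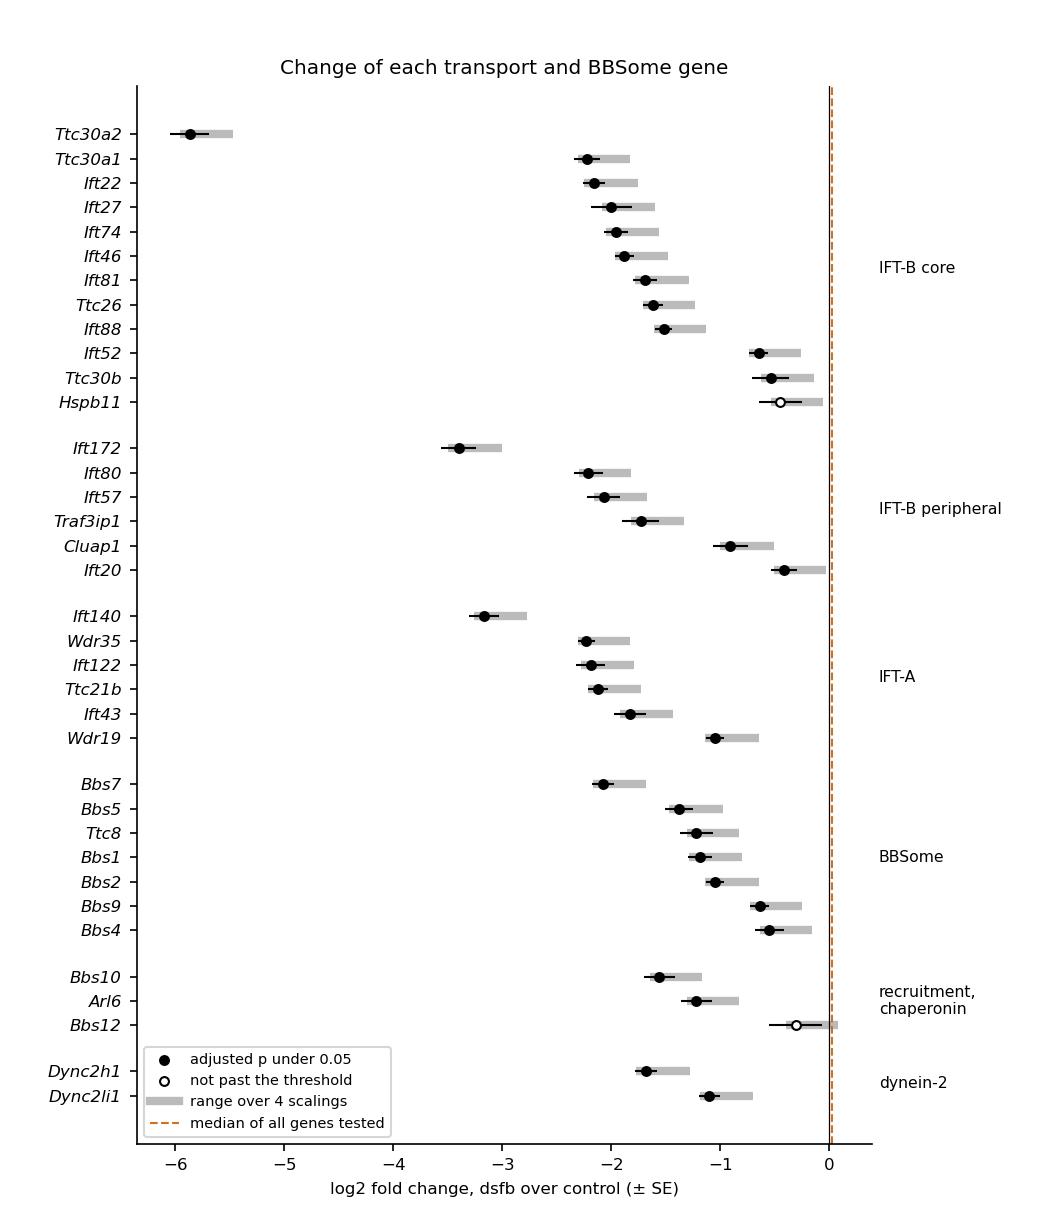
Log2 fold change, dsfb over control (horizontal axis), of each of the 36 genes with its SE, grouped by complex; filled points passed the edgeR test, open points (Hspb11 and Bbs12) did not, grey bars span 4 scalings (TMM, RLE, upper quartile, library size only) and the dashed line is the median of all genes tested, 0.02. The points run from -5.87 for Ttc30a2 to -0.31 for Bbs12, and the grey bar of Bbs12 crosses 0.

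Over the 36 genes, the SD of the log2 level in CPM per kb was 1.16, 1.16 and 1.20 in the 3 controls and 0.96, 0.93 and 0.95 in the 3 dsfb libraries. With Ttc30a2 left out it was 1.13, 1.12 and 1.18 against 0.86, 0.88 and 0.87. The ratio of the highest to the lowest gene, with Ttc30a2 kept in, was not smaller in dsfb. It was 26.6, 27.8 and 33.6 in control and 37.5, 27.2 and 27.9 in dsfb. The dsfb ratios rest on Ttc30a2 as the lowest gene (mean 1.48 CPM per kb), where the next lowest was Bbs12 (2.91). In control the highest levels per kb were those of Ift140 (96.8), Ift74 (96.7), Ttc30a2 (86.3) and Ift172 (80.1), and the first 2 did not differ beyond their spread. In dsfb the highest were Ift20 (44.7), Ift74 (24.9) and Ift52 (17.9), so that Ift20, 1 of the least changed genes, led the order. The lowest in control was Bbs12 (3.6) and in dsfb Ttc30a2 (1.48). Over the 36 genes, Spearman's rho between the level per kb in control and the log2 fold change was -0.58, a description across genes of the same 6 libraries in which the control level enters both measures.

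The promoter matches shown above were set beside the changes as a description. The 13 genes with the half-site GTTGCC had a median log2 fold change of -2.0 (range -5.87 to -1.19), and the 18 genes whose window lacked it had a median of -1.14 (range -2.22 to -0.31). The 4 genes with an X-box-like pair had log2 fold changes of -5.87 (Ttc30a2), -2.08 (Bbs7), -2.07 (Ift57) and -1.62 (Ttc26). Ttc30a2, with the largest change, and Ttc26, near the median of the 36 genes (-1.65), thus carried the same kind of pair. Bbs7 and Ift57 fell by more than that median.

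Of 8 further partners of IFT, the BBSome and ARL6 4 fell and 3 rose, with a median log2 fold change of -0.54. For this and the following lists the shares over all genes tested are 36.2% lower and 30.7% higher, and both counts of this list are near them. Ttc21a, the paralog of Ttc21b, had 87.4, 97.7 and 211 CPM in control, with replicate 3 far above the others, and 12.4, 9.97 and 14.6 in dsfb (log2 fold change -3.42 ± 0.37 SE, edgeR adjusted p = 0.000138). Its ratio per kb to Ttc21b was 0.406, 0.419 and 1.05 in control and 0.257, 0.198 and 0.287 in dsfb (exact two-sided permutation p = 0.1, the smallest possible). Bbip1, the smallest BBSome subunit, fell (log2 fold change -1.63 ± 0.12 SE), as did Lztfl1, a regulator of BBSome traffic (-1.58 ± 0.12). Ccdc28b, which interacts with BBSome proteins, rose (0.88 ± 0.13, edgeR adjusted p = 0.000567).

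Of 8 further dynein-2 subunits and light chains 5 fell and 3 rose, with a median log2 fold change of -0.96; the rises are near the 30.7% of all genes tested. The intermediate chains Wdr60 and Wdr34 fell (log2 fold change -2.0 ± 0.12 and -1.26 ± 0.10 SE), and so did the light chain Tctex1d2 (-2.89 ± 0.10, edgeR adjusted p = 4.26e-07). The roadblock light chain Dynlrb2 had 45.3, 51 and 58.4 CPM in control and 0.304, 0.172 and 0.485 in dsfb (log2 fold change -7.30 ± 0.29 SE, edgeR adjusted p = 7.5e-07). Its paralog Dynlrb1, shared with cytoplasmic dynein-1 and named after its values were seen, had 39.4, 33.9 and 24.2 CPM in control and 57.9, 60.5 and 51.4 in dsfb and rose (log2 fold change 0.80 ± 0.18 SE, edgeR adjusted p = 0.00513). The ratio of Dynlrb2 to Dynlrb1 per kb went from 2.08, 2.73 and 4.38 in control to 0.00953, 0.00516 and 0.0171 in dsfb.

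Kinesin-2, the outward motor, fell in 4 of 5 genes, with a median log2 fold change of -1.38. With DESeq2 and with limma-voom 3 of the 5 were called lower. Kif3b had 329, 356 and 436 CPM in control and 107, 115 and 103 in dsfb (log2 fold change -1.79 ± 0.12 SE, edgeR adjusted p = 1.41e-05), and Kif3a fell by less (-0.94 ± 0.09). The accessory subunit Kifap3 fell (-1.38 ± 0.20), while Kif3c, a motor known mainly from neurons, was low in all libraries and rose (0.72 ± 0.17, edgeR adjusted p = 0.00727), with 35.3% of its exonic bases shared with an antisense gene. The fold of Kif17, the homodimeric motor, was named after its values were seen because 1 library decides it: its log2 fold change was -3.37, and -1.66 without control replicate 3; with limma-voom it did not pass the test (adjusted p = 0.054).

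Of 10 ciliary GTPases and lipidated cargo factors 6 fell and 3 rose (median log2 fold change -0.71), against 36.2% and 30.7% of all genes tested. Arl3, the GTPase that releases lipidated cargo in cilia, had the largest change (-2.70 ± 0.16 SE, edgeR adjusted p = 6.51e-06). Rab23 and the cargo carrier Pde6d fell (-1.30 ± 0.09 and -1.15 ± 0.10), and the carrier Unc119 rose (0.84 ± 0.10, edgeR adjusted p = 0.000195).

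The transition zone, the gate at the base of the cilium, fell in 14 of 16 genes, with a median log2 fold change of -1.08. Ahi1 had 317, 369 and 362 CPM in control and 38.9, 41.9 and 35.4 in dsfb (log2 fold change -3.17 ± 0.11 SE, edgeR adjusted p = 4.42e-07), and B9d1 changed by -2.79 ± 0.17. Cep290, the long scaffold of the gate, fell (-1.84 ± 0.11). The gene that rose was Cc2d2a (log2 fold change 0.97, edgeR adjusted p = 0.00813), named after its value was seen. Distal appendage and basal body genes, which dock trains at the base, fell in 8 of 9 genes with a median of -1.89. Cep164, Fbf1, Sclt1 and Cep89 changed by -2.69, -2.06, -2.0 and -1.89 on the log2 scale. The gene that rose here was Ofd1, which is X-linked (0.87, edgeR adjusted p = 0.00734), also named after its value was seen.

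Ciliary transcription factors fell in 6 of 10 genes (median log2 fold change -0.94). Rfx2 had 305, 357 and 517 CPM in control and 33.4, 33.6 and 36.4 in dsfb (-3.51 ± 0.21 SE, edgeR adjusted p = 6.02e-06), and Rfx4 had 71.8, 83.8 and 112 CPM in control and 0.71, 2.06 and 1.78 in dsfb (-5.89 ± 0.35 SE). Both encode proteins of the family that binds X-boxes, and in both all dsfb libraries lay far below all controls. Tcfl5 and Mybl1, factors of meiotic germ cells, fell (-2.54 ± 0.10 and -1.15 ± 0.18). The 2 rises in this list, Rfx7 and Foxn4, were named after their values were seen, and both were lost in most other fits, limma-voom and DESeq2 among them. Of the falls, that of Rfx5 (-0.35, edgeR adjusted p = 0.0196), likewise named afterwards, was lost with upper-quartile scaling and turned to 0.05 with library size only. It was also lost without dsfb replicate 1 (edgeR adjusted p = 0.0812), replicate 2 (0.08) or replicate 3 (0.0564). Centring on the autosomal Sertoli markers, which shifts the median of all genes by -1.08, leaves no rise in the 7 lists of ciliary genes and 224 among all genes tested.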

How the data were processed

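Per the labels, RNA came from TRIzol extracts and libraries from a NEBNext Ultra kit. The authors deposited raw read counts per gene (unit counts), with 3 control and 3 dsfb libraries and no column left unused. The aligner was STAR 2.6.0 and the build mm10, per the submitters' processing notes. The sources used here do not name the counting tool, its annotation or its use of strand, so genes that overlap another gene are uncertain. Of the identifiers 55227 were found in GENCODE M21 (GRCm38) and 260, with 0.0238% of counts, were not.

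Counts were fitted in edgeR 4.0.16 (R 4.3.3): filterByExpr by group, TMM scaling, glmQLFit and glmQLFTest with the group as the only term, two-sided, Benjamini-Hochberg over 19826 genes, threshold 0.05. Fold changes use a prior count of 0.125, and the SE is the size of the log2 fold change divided by the square root of its F statistic. The fit was first tested on simulated data. Alternatives used DESeq2 1.42.0 and limma 3.58.1, other scalings and filters, thinned counts, a replicate block and each library left out; those on marker lists were chosen after seeing the data. The 36 genes and all lists were chosen with earlier results of these data known. Named genes are all 36, Hormad1, Hormad2 and up to 4 of each list with the smallest p. A gene that this rule takes is not reported here. Depth of 15.3 to 27.7 M counts per library sets the counting error. The edgeR SE and p also draw on the spread between libraries of a group, with n = 3 mice each, and no interval is given. Promoters are RefSeq's (GRCm38.p6).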

Additional observations from a re-analysis of the deposited data

How the results depend on the processing

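Between 31 and 36 of the 36 genes fell and none rose in the alternatives to the reported fit, and 21 to 36 fell at least 2-fold. The median log2 fold change of the 36 genes, -1.65 as reported, was -1.74 with RLE scaling and with DESeq2, -1.37 with upper-quartile scaling, -1.25 with library size only, -2.72 with libraries centred on the autosomal Sertoli markers and -1.72 with no filter on low counts. The scalings shifted the median of all genes by 0.28 (upper quartile), 0.40 (library size only) and -1.08 (Sertoli markers), and leaving out the filter shifted it by -0.30. Calls over all genes were 45.9% higher as reported, 57.2%, 60.9% and 1.75% in these 3 scalings and 35.5% without the filter. Bbs12 turned to 0.08 on the log2 scale with library size only, and likewise from CPM on plain library sizes; the cause was not tested. Leaving out 1 library gave 32 to 35 falls and medians of -1.70 to -1.60, and moved no fold change of the 36 genes by over 1.5 times.

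With the replicate number as a block (replicate block), 35 of the 36 genes fell and the median was -1.65; the added call was Hspb11 (edgeR adjusted p = 0.0493). The numbers share no stated litter or day. The design text speaks of pairs of testes, and it is not clear whether a pair links a control and a dsfb mouse. Same-numbered libraries had correlations of 0.071, 0.061 and 0.116 between their deviations from the group means, although each library correlated best with its own number. Calls of small changes (Ift20, Ttc30b, Bbs4) rest on the scaling.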

Other observations

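Some ciliary genes outside the 36 were high in control replicate 3 alone. Kif17 had 20 and 20.9 CPM in control replicates 1 and 2 and 163 in replicate 3, Foxj1, a factor of motile cilia, had 19.1, 17.6 and 88.1, and Rfx1 had 29.9, 26.4 and 111. In dsfb Foxj1 had 1.12, 1.72 and 2.43 CPM and fell with all libraries (log2 fold change -4.57, edgeR adjusted p = 0.00115), and its value was -3.42 without control replicate 3. Rfx1 was not called (-0.74, edgeR adjusted p = 0.238) and stood at 0.22 without that replicate. Among the 36 genes the largest differences of control replicate 3 from the mean of the other controls were those of Traf3ip1 (0.56 on the log2 scale), Ift27 (0.50), Ift172 (0.47) and Hspb11 (-0.47). These genes were picked after their values were seen.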
